A study of Mus musculus with 20 samples.

Results

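The 8 genes described here encode the apical acid extrusion, basolateral bicarbonate exit, carbonic anhydrase and scaffold steps of bicarbonate reabsorption in the kidney's proximal tubule. They are the sodium-proton exchangers Slc9a3 and Slc9a8, the sodium-bicarbonate cotransporter Slc4a4, the carbonic anhydrases Car4, Car12 and Car14, and the scaffold genes Slc9a3r1 and Pdzk1. The genes were listed by name for their roles and not by a rule on measured values, but earlier results of these data were known by then. All 8 were found among the 25700 counted gene identifiers and passed the filter on low counts. The study sequenced poly(A) RNA of 20 mouse libraries and compared mice with crystal nephropathy, a kidney injury by crystals, here in groups labelled Oxalate, with controls, each without or with alkali given as bicarbonate. Each of the 4 groups had 5 libraries. They were Control (untreated), Control_late (alkali therapy), Oxalate (untreated) and Oxalate_late (alkali therapy), and they are called control, control on alkali, oxalate and oxalate on alkali below. The labels give no tissue, strain, sex, age, dose or time, and they do not say what "late" means, so the treated and untreated groups may also differ in time. Nothing in the labels says that the libraries came from separate animals, and p-values measure the spread between these libraries.

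Most filtered bicarbonate is taken back by the proximal tubule. Slc9a3 exchanges luminal sodium for cell protons across the brush border, and the secreted proton combines with filtered bicarbonate. Membrane-bound carbonic anhydrases speed the conversion of the carbonic acid to carbon dioxide and water, which enter the cell, and Slc4a4 carries the regenerated bicarbonate with sodium out through the basolateral membrane. Slc9a3r1 and Pdzk1 are proteins with PDZ domains that tether transporters, Slc9a3 among them, under the brush border. Slc9a8 is a further sodium-proton exchanger of the apical side and of intracellular membranes.

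Because 7 of the 8 genes fell together in oxalate libraries, their start-site sequences are shown beside their levels. RefSeq windows of 300 bases (250 before to 50 after an annotated start, GRCm38.p6) matched all 8 genes, with 10 windows in all. In the lines that follow, the first 4 sequences are the 100 bases just before a start, read 5′ to 3′ on the gene's strand, with capitals marking GC boxes (GGGCGG or its reverse complement) or CCAAT boxes (CCAAT or its reverse complement). They were chosen to show both exchangers, the cotransporter and the called gene with the smallest change. The last holds capitals at letters of the kind bound by HNF4, a factor of proximal tubule and liver genes.
Slc9a3, chr13:74121313-74121412, plus strand: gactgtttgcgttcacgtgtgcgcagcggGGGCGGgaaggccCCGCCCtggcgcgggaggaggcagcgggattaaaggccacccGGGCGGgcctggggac
Slc9a8, chr2:167421610-167421709, plus strand: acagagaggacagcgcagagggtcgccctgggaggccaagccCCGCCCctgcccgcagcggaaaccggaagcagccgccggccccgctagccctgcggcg
Slc4a4, chr5:89027866-89027965, plus strand: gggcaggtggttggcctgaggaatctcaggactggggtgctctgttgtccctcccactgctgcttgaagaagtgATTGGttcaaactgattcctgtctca
Car12, chr9:66713586-66713685, plus strand: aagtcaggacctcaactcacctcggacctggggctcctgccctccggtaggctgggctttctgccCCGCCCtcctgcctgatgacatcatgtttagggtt
Pdzk1, chr3:96830069-96830098, plus strand: aatctttgtcCAAAGTCCAgtgagttccaa

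GC boxes stood in the windows of 6 of the 8 genes (Slc9a3, Slc9a8, Slc4a4, Car12, Slc9a3r1 and Pdzk1), in 6 of their 10 windows, against 35.7% of the 32851 RefSeq windows of the same length. CCAAT letters stood in the windows of 3 genes (Slc4a4, Slc9a3r1 and Pdzk1), in 4 of the 10, against 37.4% of all windows. Slc4a4 has 2 annotated starts in that table. The window of the one shown carries a CCAAT box and no GC box, and the window of the other carries a GC box and no CCAAT box. The HNF4 letters CAAAGTCCA were found for Pdzk1 only, beginning at base 15 after its start, and in 0.475% of all windows. Both strands were searched for each motif, and the 3 motifs were counted separately. These matches describe letters only, and counts per gene do not tell which start was used.

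The libraries held between 25547840 and 39550689 counted reads. The 8 genes were well covered, with at least 1556 reads for each gene in every library. As a check of tissue, the 30 proximal tubule markers (among them Lrp2, Slc34a1 and Slc5a2) summed to between 83700 and 99500 CPM (gene counts scaled to library size by edgeR's trimmed mean method) in control libraries, so transcripts of that segment were abundant. Adipoq, a fat cell gene, was above 1 CPM, here by total counts without the trimmed mean, in 6 libraries (controls 9 and 26, controls on alkali 1 and 4, oxalate 32 and oxalate on alkali 33). Calls of the 8 genes that were lost or gained without these libraries are given with their values. Library values are listed in the order of their label numbers, which are 9, 13, 19, 26 and 35 for control, 3, 12, 32, 39 and 40 for oxalate, 1, 4, 7, 27 and 37 for control on alkali, and 2, 5, 8, 30 and 33 for oxalate on alkali.

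Per kilobase of exon, the control levels ran from Pdzk1 at 376 ± 21.3 CPM per kb (SD, n = 5) through Slc9a3r1 at 172 ± 13.3 to Car4 at 115 ± 13 and Slc4a4 at 103 ± 13.6. Car14 at 41.7 ± 5.45, Car12 at 39.1 ± 1.01, Slc9a8 at 30.3 ± 1.86 and Slc9a3 at 29.3 ± 1.73 CPM per kb came lowest. The neighbours Car4 and Slc4a4, Car14 and Car12, and Slc9a8 and Slc9a3 lay within their spread of each other. The scaffold genes were the most abundant of the set and the 2 exchangers the least. All other levels are in CPM without the length scaling and are compared only within a gene.

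Oxalate against control, both untreated, asked how the genes stood in the crystal-injured mice. Of the 8 genes, 7 fell and none rose, the least Car12 (1.23-fold) and the most Slc9a8 (2.24-fold), and Car14 did not pass the test (edgeR quasi-likelihood test with Benjamini-Hochberg adjustment, adjusted p under 0.05). Over all 15430 genes tested, 49.4% were called in either direction, 26.4% higher and 23.1% lower. For the same 7 genes every oxalate library lay below every control library, a separation that 15.4% of all tested genes showed. In such bulk RNA, fewer cells of a type and less RNA per cell cannot be told apart.

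The exchanger of the brush border, Slc9a3 (chr13:74121457-74169442, plus strand, GRCm38), read 167, 173, 152, 163 and 151 CPM in control and 103, 79.4, 103, 105 and 62.2 CPM in oxalate. The groups did not overlap, and oxalate 40 was lowest. Its log2 fold change was -0.83 ± 0.14 (SE), a 1.78-fold lower level, with an adjusted p of 0.000106 from edgeR. On alkali the levels were 156, 164, 153, 128 and 159 CPM in control and 145, 107, 105, 135 and 86.4 CPM in oxalate, so that oxalate 2 and 30 reached into the control range. The oxalate difference on alkali was -0.39 ± 0.14 on the log2 scale (edgeR adjusted p = 0.0323). That call was lost without any 1 of controls on alkali 1, 4, 7 or 37 or oxalate on alkali 5, 8 or 33, the largest adjusted p being 0.0967 without oxalate 33. Within oxalate mice the alkali group was higher by 0.36 ± 0.14 on that scale, which did not pass the test (edgeR adjusted p = 0.153).

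Slc9a8 (chr2:167421712-167477000, plus strand) read 297, 276, 284, 268 and 252 CPM in control and 126, 128, 163, 126 and 73.4 CPM in oxalate. No library overlapped, and the fall of 1.16 ± 0.20 on the log2 scale (2.24-fold, edgeR adjusted p = 0.000134) was the largest among the 8 genes. On alkali it read 334, 293, 280, 298 and 309 CPM in control and 346, 167, 174, 168 and 141 CPM in oxalate. Oxalate on alkali 2 stood above all 10 control libraries of both kinds, while the other 4 were below every one of them. The oxalate difference on alkali was -0.60 ± 0.20 (log2, edgeR adjusted p = 0.023), and the call was lost without control 1 or oxalate 5, 8, 30 or 33, with an adjusted p of up to 0.0681. Alkali against untreated in oxalate gave 0.69 ± 0.20, a 1.62-fold higher level with 4 of 5 libraries above every untreated oxalate library, and it missed the threshold (edgeR adjusted p = 0.0555). Without oxalate on alkali 2 it was 0.40 with an adjusted p of 0.12, whereas without oxalate 32 it was 0.83 with 0.0217, and without oxalate on alkali 33 it was 0.80 with 0.028, by the same edgeR test.

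Slc4a4 (chr5:88886818-89239653, plus strand), the basolateral exit for bicarbonate, read 971, 1250, 1120, 953 and 1260 CPM in control and 744, 510, 825, 896 and 407 CPM in oxalate. The control libraries already ranged 1.33-fold, the oxalate libraries 2.2-fold, and the groups did not overlap. The difference was -0.72 ± 0.22 on the log2 scale (1.64-fold lower, edgeR adjusted p = 0.011). On alkali the levels were 1150, 951, 1080, 1010 and 1130 CPM in control and 1040, 604, 419, 707 and 475 CPM in oxalate, with oxalate 2 inside the control range. The difference had the same size of -0.72 ± 0.22 (log2, edgeR adjusted p = 0.0159), a call lost without the libraries with Adipoq (adjusted p 0.0896). Alkali within oxalate gave -0.06 ± 0.22 (edgeR adjusted p = 0.908). Its level in oxalate mice was thus 676 ± 209 CPM untreated and 648 ± 244 CPM on alkali (SD, n = 5 each).

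**Figure D1:**
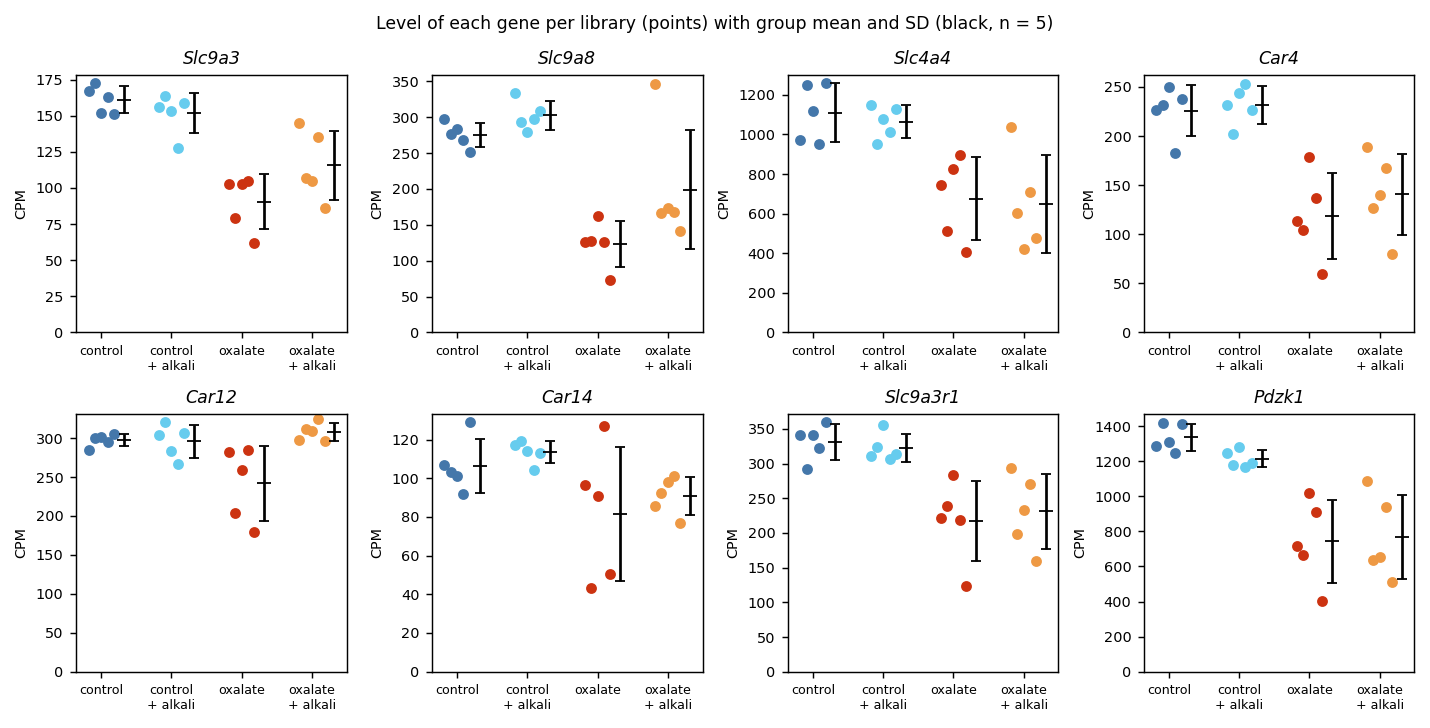
Level of each of the 8 genes in CPM (vertical axes, starting at 0) in every library, by group, with the group mean and SD in black (n = 5). The oxalate points lie below all control points for every gene but Car14, and oxalate on alkali 2 is the high Slc9a8 point at 346 CPM.

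Among the carbonic anhydrases, Car4 and Car12 fell in untreated oxalate and Car14 was not called. Car4 (chr11:84957786-84966044, plus strand) is the membrane-anchored enzyme of the brush border, and it read 227, 232, 250, 183 and 238 CPM in control and 113, 104, 179, 137 and 59.6 CPM in oxalate. Oxalate 32 came within a few CPM of control 26, yet the groups did not overlap. The fall was 0.93 ± 0.22 on the log2 scale (1.91-fold, edgeR adjusted p = 0.00186). On alkali it read 232, 202, 244, 253 and 227 CPM in control and 189, 127, 140, 167 and 80.0 CPM in oxalate, again without overlap, a difference of -0.72 ± 0.22 (log2, edgeR adjusted p = 0.0156). The alkali difference within oxalate was 0.25 ± 0.22 (edgeR adjusted p = 0.564). It ranged from 0.089 without oxalate 40 to 0.46 without oxalate 32.

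Car12 (chr9:66713686-66766845, plus strand), a membrane-spanning enzyme with its active site outside the cell, was the tightest gene in control, at 285, 300, 302, 295 and 305 CPM. It read 282, 204, 259, 285 and 179 CPM in oxalate, where libraries 40 and 12 were the lowest and oxalate 39 sat just under the lowest control. The difference was -0.30 ± 0.11 on the log2 scale (1.23-fold lower, edgeR adjusted p = 0.0254). That call was lost without oxalate 12 (-0.24, adjusted p 0.0791), when only the 2 groups entered the edgeR fit (-0.29, adjusted p 0.0805) and with scaling by total counts (-0.01, adjusted p 0.909). On alkali Car12 read 304, 321, 283, 267 and 306 CPM in control and 297, 312, 309, 324 and 296 CPM in oxalate, which overlapped, with a difference of 0.05 ± 0.11 (log2, edgeR adjusted p = 0.708). All 5 oxalate libraries on alkali lay above all 5 untreated oxalate libraries, a separation that 1.91% of tested genes showed. The difference was 0.35 ± 0.11 and did not pass edgeR's test (adjusted p = 0.0687), though it passed without oxalate 32 (0.0471) or without oxalate 39 (0.0388) and with DESeq2 (0.0227).

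Car14 (chr3:95897768-95904691, minus strand), another membrane-spanning form, read 107, 103, 101, 91.8 and 129 CPM in control and 96.4, 43.3, 90.8, 127 and 50.5 CPM in oxalate. Oxalate 12 and 40 were far below the other 3 libraries, and oxalate 39 was near the top of the control range. The difference of -0.38 ± 0.20 (log2) was not called (edgeR adjusted p = 0.119), without oxalate 39 it was -0.60 with an adjusted p of 0.0106, and without oxalate 12 it was -0.22 with 0.305. On alkali Car14 read 117, 119, 114, 104 and 113 CPM in control and 85.5, 92.2, 98.1, 101 and 77.1 CPM in oxalate. These groups did not overlap, but the difference of -0.32 ± 0.20 was not called in the fit of all libraries (edgeR adjusted p = 0.201). It was called, at the same -0.32, when only those 2 groups were fitted, with an adjusted p of 0.0128. Car14 shares 445 exon bases, 17.5% of its own, with Aph1a on the other strand. The strand setting of the counting is not given in the sources used here, so reads in those bases may have been misassigned or left out.

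The scaffold gene Slc9a3r1 (chr11:115163341-115181181, plus strand) read 341, 292, 341, 322 and 360 CPM in control and 221, 239, 283, 219 and 124 CPM in oxalate, with no overlap. Its difference was -0.61 ± 0.17 on the log2 scale (1.53-fold lower, edgeR adjusted p = 0.00594). On alkali it read 311, 324, 356, 307 and 314 CPM in control and 293, 198, 233, 271 and 160 CPM in oxalate, also with no overlap. That difference was -0.48 ± 0.17 (edgeR adjusted p = 0.0309), a call lost without control 7 or oxalate 5, 8 or 33, with an adjusted p of up to 0.0905. The alkali difference within oxalate was 0.09 ± 0.17 (edgeR adjusted p = 0.812).

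Pdzk1 (chr3:96829284-96870926, plus strand), the scaffold with the highest level of the set, read 1290, 1420, 1310, 1250 and 1410 CPM in control and 718, 665, 1020, 909 and 404 CPM in oxalate. Every oxalate library was lower than every control library. The log2 fold change was -0.85 ± 0.20, a 1.8-fold lower level (edgeR adjusted p = 0.00212). On alkali it read 1250, 1180, 1280, 1170 and 1190 CPM in control and 1090, 637, 654, 940 and 513 CPM in oxalate, and all 5 oxalate libraries were again lower. The difference was -0.66 ± 0.20 (edgeR adjusted p = 0.0159), a call lost without the libraries with Adipoq (adjusted p 0.086). Alkali within oxalate gave 0.05 ± 0.20 (edgeR adjusted p = 0.931). Pdzk1 shares 1333 exon bases, 37.5% of its own, with Gpr89 on the other strand, which had a mean count of 874 against 30400 for Pdzk1. Reads in those bases may likewise have been misassigned or left out, which would bear on its level per kilobase.

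The size of the fall depended on the scaling. With total counts in place of the trimmed mean, the median log2 fold change of all tested genes was 0.30 rather than 0.00, and the share of called genes that were higher went from 53.3% to 85.1%. On that scale the oxalate differences without alkali were -0.55 for Slc9a3, -0.89 for Slc9a8, -0.44 for Slc4a4 and -0.66 for Car4. They were -0.01 for Car12, -0.10 for Car14, -0.33 for Slc9a3r1 and -0.58 for Pdzk1, and 6 of the 8 genes were called lower. Of all 15430 genes tested on that scale, 1308 were called lower and 7498 higher. The median of the 8 genes was -0.77 with the trimmed mean and -0.49 with total counts. A change of scaling shifts all genes by nearly the same amount. Their distance to the all-gene median could therefore hardly change, and nothing is drawn from it.

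Oxalate against control among mice on alkali asked whether the same genes were lower under the treatment. Here 6 of the 8 genes fell (Slc9a3, Slc9a8, Slc4a4, Car4, Slc9a3r1 and Pdzk1), none rose, and Car12 and Car14 were not called. Of all tested genes, 40.4% were called in either direction, 23.4% higher and 17.1% lower. Car4, Car14, Slc9a3r1 and Pdzk1 had all 5 oxalate libraries below all 5 controls, as did 5.51% of all tested genes. The median of the 8 genes was -0.54 on the log2 scale, against 0.02 for all genes. With total counts, where the all-gene median was 0.24 and 85.6% of called genes were higher (57.8% with the trimmed mean), Slc9a3 (-0.20, adjusted p 0.116) and Slc9a3r1 (-0.29, adjusted p 0.0719) lost their edgeR calls and Car12 was called higher (0.26, adjusted p 0.0262). Without oxalate on alkali 5, 8 or 33, 3 of the 8 genes (Slc4a4, Car4 and Pdzk1) were called in each case. Without the 6 libraries with Adipoq, which left 3 controls and 4 oxalate libraries, 1 gene, Car4, was called (-0.66, edgeR adjusted p 0.0385). The other 5 lost their calls there while staying below 0, at -0.28 for Slc9a3 (adjusted p 0.223), -0.50 for Slc9a8 (0.139), -0.67 for Slc4a4 (0.0896), -0.42 for Slc9a3r1 (0.12) and -0.58 for Pdzk1 (0.086).

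**Figure D2:**
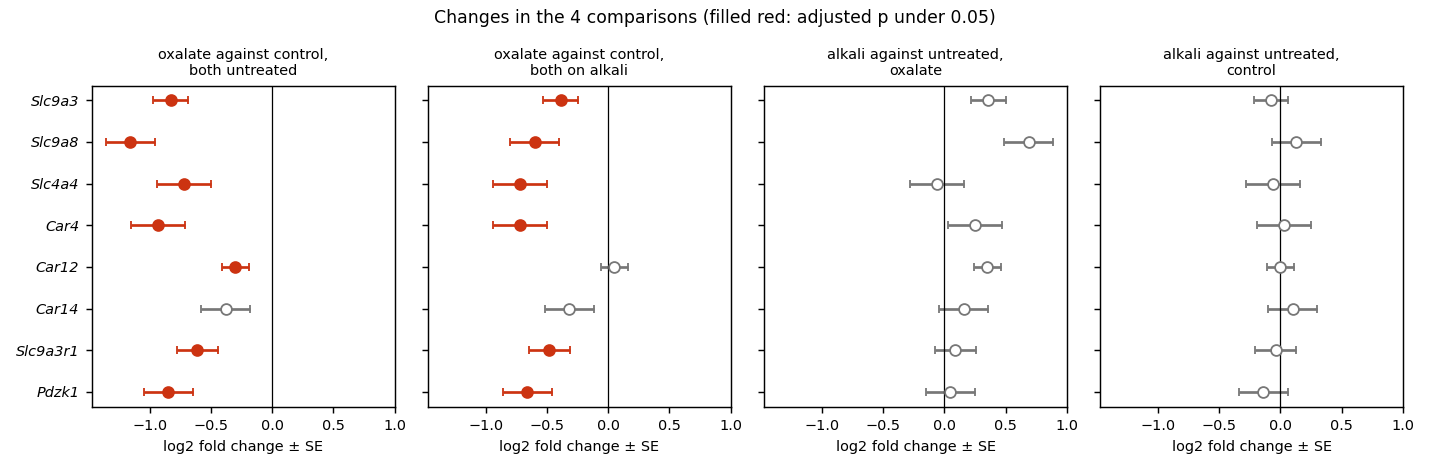
Log2 fold change with its SE (horizontal axes) of each of the 8 genes in the 4 comparisons of 2 groups, from the edgeR fit of all 20 libraries, with filled red points for an adjusted p under 0.05. Called points stand to the left of 0 in both oxalate comparisons, and no gene is called in either alkali comparison.

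Alkali against untreated within oxalate mice called 0 of the 8 genes by edgeR, with 4.08% of all tested genes called. Before adjustment 3156 of the 15430 genes tested were under 0.05. Among them were 3 of the 8 genes, Slc9a3, Car12 and Slc9a8, with higher values on alkali. DESeq2 called 2 of these 3, Car12 (0.34, adjusted p 0.0227) and Slc9a8 (0.68, adjusted p 0.0169). With total counts edgeR called Slc9a8 alone (0.63, adjusted p 0.0406), and without the libraries with Adipoq it did too (0.93, adjusted p 0.026). The other 5 genes lay between -0.06 ± 0.22 for Slc4a4 and 0.25 ± 0.22 for Car4 on the log2 scale. Without the libraries with Adipoq their values were higher, at 0.13 for Slc4a4, 0.61 for Car4, 0.26 for Car14, 0.33 for Slc9a3r1 and 0.32 for Pdzk1, and none was called (the smallest edgeR adjusted p was 0.0633, for Car4).

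In control mice alkali called 0 of the 8 genes, and 0.0% of all tested genes passed edgeR's test, with 389 genes and none of the 8 at an unadjusted p under 0.05, while DESeq2 called 3 genes. The 8 log2 fold changes ran from -0.14 ± 0.20 for Pdzk1 to 0.13 ± 0.20 for Slc9a8. The interaction, which tests whether the alkali difference was another in oxalate than in control mice, called 0 of the 8 genes and 0.0% of all tested genes by edgeR. Unadjusted p was under 0.05 for 1429 genes, and DESeq2 called 26. Among the 8 genes, Slc9a3 (0.44 ± 0.20, edgeR adjusted p = 0.516) and Car12 (0.35 ± 0.15, edgeR adjusted p = 0.498) were under 0.05 before adjustment, and Slc9a8 gave 0.56 ± 0.28 (edgeR adjusted p = 0.563). Without oxalate on alkali 2 the Slc9a8 interaction was 0.27 (edgeR adjusted p = 0.683). The comparisons share groups, so their values are set side by side and were not counted as separate support for each other.

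Some oxalate libraries stood low or high in their group for most of the genes at once. Oxalate 40 was the lowest of its group for 7 of the 8 genes and oxalate on alkali 33 likewise for 7, while oxalate on alkali 2 was the highest of its group for 6. Control libraries were more mixed. Control 35 was the lowest of its group for 2 genes and the highest for 4, and control on alkali 27 the lowest for 5 and the highest for 1. The summed level of the 8 genes ran from 3530 to 4110 CPM in control, 3540 to 3860 in control on alkali, 1360 to 2930 in oxalate and 1830 to 3490 in oxalate on alkali. The 30 proximal tubule markers moved with them, at 80200 to 90700 CPM in control on alkali, 26800 to 68600 in oxalate and 36100 to 77700 in oxalate on alkali. The 8 genes made up 3.93% to 4.52% of that marker sum in control and 3.98% to 4.47% in control on alkali. Their share was 4.27% to 5.08% in oxalate and 4.49% to 5.07% in oxalate on alkali. Kap alone had a mean of 36300 CPM in control, so the marker sum leans on that gene. Of those markers, 26 of 30 fell in oxalate without alkali (19 with total counts) with a median of -0.86, and 19 of 30 on alkali with a median of -0.67. Over all tested genes, 23.1% were called lower without alkali and 17.1% on alkali.

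Sums of injury and macrophage markers were higher in oxalate, where the 8 genes were lower. Sums of principal cell, intercalated cell and endothelial markers overlapped between oxalate and control libraries. The 10 tubular injury markers, such as Havcr1 and Lcn2, all rose in untreated oxalate and summed to 2510 to 4480 CPM there, against 627 to 779 in control. Their sum was 751 to 844 CPM in control on alkali and 1250 to 3550 in oxalate on alkali. All 9 macrophage markers rose, summing to 713 to 2820 CPM in oxalate against 123 to 171 in control, with 123 to 185 in control on alkali and 277 to 891 in oxalate on alkali. Principal cell markers summed to 443 to 624 CPM in control, 506 to 658 in control on alkali, 565 to 795 in oxalate and 571 to 1040 in oxalate on alkali. Intercalated cell markers summed to 610 to 701, 642 to 713, 622 to 798 and 666 to 1010 CPM in the same order. Single markers of these lists were called, with the trimmed mean. In untreated oxalate Scnn1g (0.57 ± 0.14), Scnn1b (0.48 ± 0.15), Hsd11b2 (0.46 ± 0.13) and Atp6v0d2 (1.23 ± 0.22) rose and the others were not called. In oxalate on alkali against control on alkali the same genes rose, as did Aqp6 (1.05 ± 0.18), Slc4a1 (0.67 ± 0.16), Atp6v1g3 (0.38 ± 0.14) and Atp6v1b1 (0.27 ± 0.10). Of the 8 endothelial markers, 1 rose in untreated oxalate (Pecam1, 0.33 ± 0.11) and 7 rose in oxalate on alkali against control on alkali, with a median of 0.45 (6 and 8 with total counts). Their sum was 381 to 489 CPM in control, 388 to 504 in control on alkali, 422 to 563 in oxalate and 477 to 719 in oxalate on alkali. Of the 7 thick ascending limb markers, Egf (-0.91 ± 0.22) and Cldn10 (-0.77 ± 0.11) fell and Cldn16 (0.80 ± 0.13) and Cldn19 (0.55 ± 0.15) rose in untreated oxalate, and the same 4 were called in the same directions on alkali, where total counts left Egf uncalled (adjusted p 0.0839). The single marker genes given here with their log2 values were named after those values were seen. The part of these cell markers in the results for the 8 genes was not tested.

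**Figure D3:**
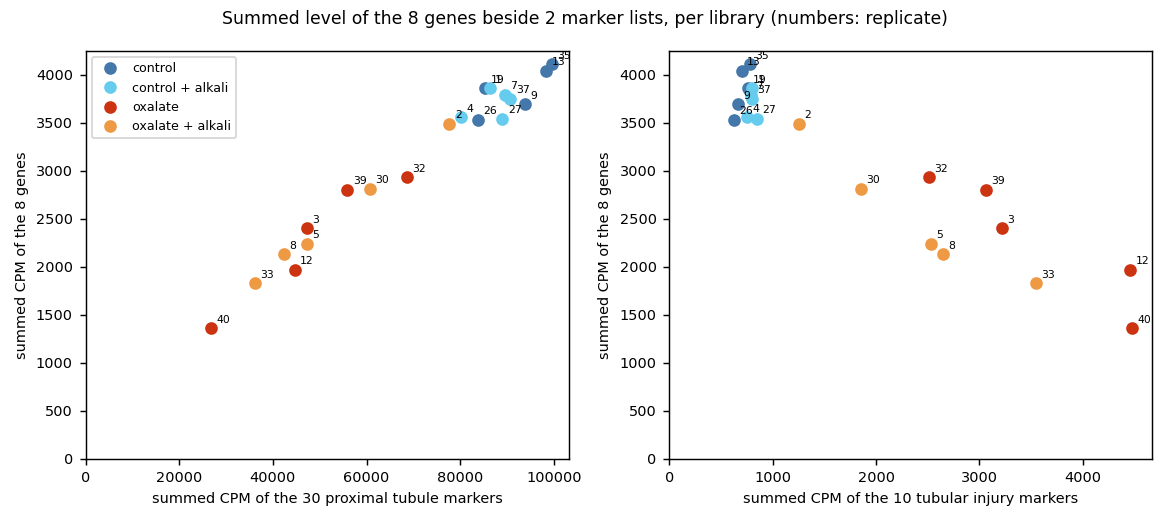
Summed CPM of the 8 genes (vertical axes) against the summed CPM of the 30 proximal tubule markers (left) and of the 10 tubular injury markers (right), 1 point per library with its label number. Oxalate 40 has the lowest sum of the 8 genes, at 1360 CPM, and oxalate on alkali 2 sits nearest the control libraries, at 3490 CPM.

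Other genes of the pathway were read from 3 lists. Of 24 transport partners (the sodium pump, proton pump subunits, anion exchangers, potassium channels and further carbonic anhydrases), 10 fell and none rose in untreated oxalate, with a median of -0.29 on the log2 scale against 0.00 for all genes. That is beside 26.4% of all tested genes called higher and 23.1% called lower. With total counts 7 were called higher and 4 lower, with a median of 0.01. In that run the all-gene median was 0.30, and 7498 of the 15430 genes were called higher and 1308 lower. The sign of this list's median thus turned on the scaling, which shifts all genes by nearly the same amount. Aqp1, the water channel of the proximal tubule, fell by 0.92 ± 0.17 on the log2 scale (1020 to 537 CPM, edgeR adjusted p = 0.000241). Slc26a1, a basolateral sulfate, oxalate and bicarbonate exchanger, fell by 0.81 ± 0.18 (225 to 129 CPM, edgeR adjusted p = 0.00116). Car5b, a mitochondrial carbonic anhydrase, fell by 0.49 ± 0.09 (edgeR adjusted p = 0.000297), which total counts brought to -0.20 with an adjusted p of 0.0504. On alkali 10 of the 24 again fell and none rose, beside 17.1% of all tested genes called lower and 23.4% higher. The 10 included Aqp1 (-0.79 ± 0.17), Car5b (-0.44 ± 0.09) and the proton pump subunit Atp6v1b2 (-0.49 ± 0.12). With total counts 4 of the 24 were called higher and 6 lower, in a run with an all-gene median of 0.24 and 85.6% of called genes higher. For alkali edgeR called none of the 24 in oxalate mice, where Slc26a1 (0.39 ± 0.18, adjusted p = 0.224) was under 0.05 before adjustment, and none in control mice.

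Of 15 regulators of the exchanger, 3 rose and 6 fell in untreated oxalate (6 and 2 with total counts), and with 49.4% of all tested genes called, the count says little about the regulators as a group. Sgk1, a kinase that raises exchanger activity, rose from 70.6 to 112 CPM (0.67 ± 0.20, edgeR adjusted p = 0.00944) and fell within oxalate mice on alkali to 61.0 CPM (-0.88 ± 0.20, edgeR adjusted p = 0.0208). Agtr1a, the angiotensin receptor, did the opposite, from 48.0 to 32.3 CPM in oxalate (-0.57 ± 0.08, edgeR adjusted p = 9.51e-06) and 45.3 CPM in oxalate on alkali (0.49 ± 0.08, edgeR adjusted p = 0.00311). That was still below the 53.3 CPM of control on alkali (-0.23 ± 0.08, edgeR adjusted p = 0.0216), a call lost with total counts (-0.03, adjusted p 0.779). Sgk1 and Agtr1a were the only 2 regulators called for alkali in oxalate mice, and neither interaction passed edgeR's test (adjusted p of 0.474 for both). The endothelin receptor Ednrb rose by 0.54 ± 0.16, and the dopamine receptor Drd1 rose by 1.08 ± 0.43 at a very low level (0.157 to 0.337 CPM). Ahcyl1, which encodes a binding partner of the exchanger, fell by 0.44 ± 0.09 and the kinase gene Ptk2b fell by 0.40 ± 0.10, and neither was called with total counts. On alkali 2 regulators rose in oxalate mice (Gpr4, a proton-sensing receptor, by 0.73, and the scaffold gene Slc9a3r2 by 0.45). In the same comparison 5 fell, with Ahcyl1 at -0.34, Chp1 at -0.34 and Ptk2b at -0.31, beside 40.4% of all tested genes called in either direction. With total counts 3 regulators were higher and none lower.

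The third list holds transporters that bind the scaffolds Slc9a3r1 or Pdzk1, and 2 of its genes, Slc34a1 and Slc34a3, are also among the proximal tubule markers. Of its 14 clients, 10 fell and 2 rose in untreated oxalate, with a median of -0.75, again beside 23.1% of all tested genes called lower and 26.4% higher. With total counts 8 fell and 3 rose, with a median of -0.46, beside 1308 of the 15430 genes called lower and 7498 higher in that run. The lactate and butyrate carrier Slc5a8 fell by 1.17 ± 0.25 on the log2 scale (367 to 163 CPM, edgeR adjusted p = 0.00075). The organic cation carrier Slc22a4 fell by 0.95 ± 0.20 and the export pump Abcc2 fell by 0.73 ± 0.17. Scarb1, the lipoprotein receptor, rose by 0.83 ± 0.13 (14.3 to 25.4 CPM, edgeR adjusted p = 4.15e-05), and the export pump Abcc4 rose by 0.54 ± 0.13. On alkali 7 fell and 2 rose, beside 17.1% of all tested genes called lower and 23.4% higher. The 7 included Slc5a8 at -0.91, Slc17a1, a phosphate and urate carrier, at -0.68, and the carnitine carrier Slc22a5 at -0.61. The 2 were Scarb1 at 0.72 and Abcc4 at 0.42. Within oxalate mice 1 client was called higher in the alkali group. It was the phosphate carrier Slc34a3, at 31.0 CPM untreated and 56.0 CPM on alkali (0.85 ± 0.21, edgeR adjusted p = 0.0276). Its interaction was not called (0.67 ± 0.3, edgeR adjusted p = 0.501). In control mice alkali called none of the 15 regulators or the 14 clients.

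**Figure D4:**
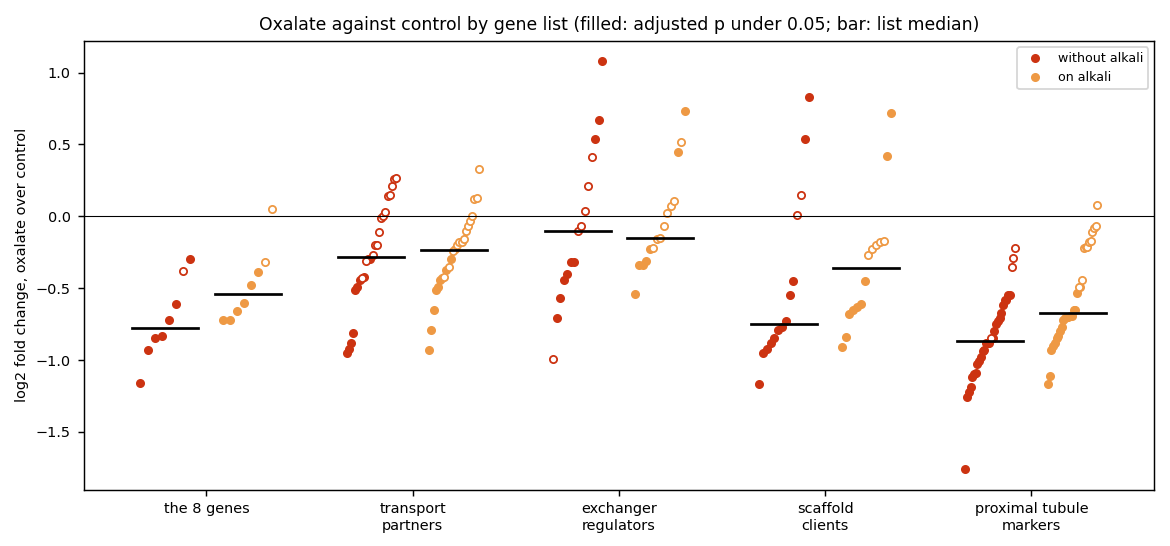
Log2 fold change of oxalate over control (vertical axis) for each gene of 5 lists, without alkali (red) and on alkali (orange), with filled points for an adjusted p under 0.05 and black bars for list medians. Without alkali the bars of the 8 genes, the scaffold clients and the proximal tubule markers lie at -0.77, -0.75 and -0.86, and those of the transport partners and the exchanger regulators at -0.29 and -0.10.

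The genes with the most similar profile over the 20 libraries were found by the root mean square difference in log2 CPM, each gene centred on its own mean, among 12208 genes. The closest to Slc9a3 were Enpp2 (0.091), Mthfd1 (0.1) and Prkcz (0.105), and the closest to Slc9a8 were Cbs (0.147), Ksr2 (0.157) and Aldh8a1 (0.172). Slc4a4 was closest to Mlec (0.13), Enpp6 (0.13) and Cmbl (0.132). Car4 lay nearest to Mfsd4b5 (0.119), Khk (0.12) and Fah (0.133), Car12 to Cgnl1 (0.104), Pfkm (0.112) and Slc43a2 (0.114), and Car14 to Xpnpep2 (0.168), Hacl1 (0.169) and Cyp2d26 (0.196). Slc9a3r1 was nearest to Aldh2 (0.066), Acbd4 (0.089) and Trap1 (0.092), and Pdzk1 to Cryzl2 (0.06), Gstz1 (0.075) and Hgd (0.081). Within the set, Pdzk1 was closest to Car4 (0.163) and Slc4a4 (0.171), and Slc9a8 and Car12 were farthest apart (0.505). These are descriptions over libraries that share the oxalate difference, and smaller values also follow from genes that vary little.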

How the data were processed

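Poly(A) RNA of 20 mouse libraries, 5 in each of 4 groups taken from titles and treatment labels, was prepared with a stranded TruSeq kit, per the labels' protocols. The deposited values are raw whole-number counts per gene, for which the submitters' processing notes name bcl2fastq 2.19, Trimmomatic, the aligner STAR 2.7.1, the counter featureCounts and the test package edgeR. Those notes name GRCh38.p5, a human build, although every identifier is of the mouse, so the build remains unresolved, and the strand setting is not given in the sources used here. Symbols, exon lengths and gene coordinates came from GENCODE M21 (GRCm38), which matched 25587 of 25700 identifiers. The 113 others held at most 0.0541% of any library's counts.

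The software was R 4.3.3, edgeR 4.0.16 and, as an alternative, DESeq2 1.42.0. The filterByExpr rule at a minimum count of 10 retained 15430 genes and dropped 10270. After TMM scaling, all 20 libraries entered 1 robust quasi-likelihood fit with a mean per group. Calls needed a p, adjusted by Benjamini-Hochberg over all tested genes, below 0.05. SEs are the absolute log2 fold change divided by the square root of F, and the common biological coefficient of variation was 0.2. No 2 libraries of a group were alike within sampling noise (chi-square per degree of freedom of at least 9.09). The code was tested on simulated data. Alternatives were DESeq2, scaling by total counts, no filter, fitting only the groups compared, leaving out libraries with Adipoq above 1 CPM, and leaving out each library.

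The 8 genes and the gene lists were chosen with earlier results of these data known. Per comparison of 2 groups, each of the 3 pathway lists gave its called genes of smallest p, at most 3 in each direction, to be named, and for each of the 8 genes the 3 most similar profiles with a mean log2 CPM of at least 1.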

Additional observations from a re-analysis of the deposited data

Results flagged for a closer look

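Slc9a8 in oxalate on alkali library 2 was 346 CPM, apart from the other 4 libraries of its group at 141 to 174 CPM. Its gap to the nearest library was 0.839 of the group's whole range, above Dixon's 95% critical value of 0.71 for 5 samples. It was the 1 such library in 32 groups of 5 values checked (8 genes in 4 groups), of which chance would give about 1 in 20. The same library had the highest level of its group for 6 of the 8 genes. Its sum of proximal tubule markers was the highest of its group at 77700 CPM, its sum of tubular injury markers the lowest at 1250 CPM and its sum of macrophage markers the lowest at 277 CPM, and the part of these in the Slc9a8 value was not tested.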

How the results depend on the processing

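No paired analysis was possible because the replicate numbers in the labels differ between all groups. For untreated oxalate against control, 7 genes were called, and 6 to 8 with each library left out, with 6865 to 8382 genes called in all. For oxalate against control on alkali, 6 genes were called, 3 to 6 with a library left out (4428 to 7927 genes in all), and 1 without the libraries with Adipoq, where 3219 genes were called in place of 6237 from fewer libraries. For alkali in oxalate, edgeR called 0 of the 8 and 630 genes in all. DESeq2 called 2 and 1203, total counts 1 of the 8, the fit of only those groups 29 genes in all, the libraries without Adipoq 1 and 1263, and leaving out a library 0 to 2 and 185 to 1160 (at most 415 without oxalate 3, 12 or 40 or oxalate on alkali 8 or 30, and at least 974 without oxalate 32 or oxalate on alkali 33). For alkali in control DESeq2 called 3 genes in all, and leaving out a library 0 to 1. For the interaction DESeq2 called 26, the libraries without Adipoq 1, and leaving out a library 0 to 3. The cause of these shifts was not tested.

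Uncalled log2 values near 0 changed sign. For alkali in oxalate these were Pdzk1 at -0.0088 (total counts) and Slc4a4 at 0.127 (without Adipoq), and with a library left out Slc4a4 (-0.30 to 0.060), Car14 (-0.0041 to 0.37), Slc9a3r1 (-0.046 to 0.22) and Pdzk1 (-0.12 to 0.20). For alkali in control they were Car12 at 0.032 (total counts) and Car14 at -0.012 (without Adipoq), and with a library left out Car12 (-0.034 to 0.031) and Car4 (-0.033 to 0.080). For the interaction they were Slc4a4 at -7e-04 (DESeq2) and -0.096 (total counts) and Car14 at -0.0093 (total counts), and with a library left out Slc4a4 (-0.23 to 0.12), Car14 (-0.10 to 0.28) and Slc9a3r1 (-8e-04 to 0.26). Called values of the 8 genes kept their sign in every alternative run. Each of the 8 genes had at least 1556 reads in each library, and whether depth or the number of libraries limits the calls was not tested.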
